A study of Mus musculus with 24 samples.

Results

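The respiratory chain subunits of mouse macrophages were followed here, both those encoded in the nucleus and those encoded in the mitochondrial genome. Nuclear members were the genes outside the mitochondrial chromosome whose symbols name a numbered Nduf subunit of the a, b, c, s or v series, Sdha to Sdhd, any Uqcr gene, or any gene of Cox4 to Cox8. Mitochondrial members were the genes whose symbols start with mt-Nd, mt-Co, mt-Atp or mt-Cytb. Of 84 genes with such symbols, 73 had at least 60 reads summed over the 24 libraries, and these 73 were the members, 65 nuclear and 8 mitochondrial, among 55401 genes in the count table. The minimum was met by 12967 genes of the whole table. Just inside it lay the pseudogene Uqcrh-ps2 with 66 reads, and just outside it lay Uqcrh-ps1 with 37. The other genes left out were Cox7c-ps1 with 11 reads, Cox4i2 with 4, Cox7b2, Cox8b and Cox8c with 0, and 5 mitochondrial genes described below.

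The cells were bone marrow-derived macrophages of C57BL/6J wild-type mice, grown in medium conditioned by L929 cells, a fibroblast line that is a source of M-CSF. Cells stayed untreated, given sphingomyelin d18:1/14:0 (S14) at 30 µM, or given lipopolysaccharide (LPS, a bacterial cell wall component sensed by macrophages) at 100 ng/mL, for 3 h or for 18 h. Each of the 6 groups had 4 libraries, made by 3' end sequencing of polyadenylated RNA, in which a read marks the end of a transcript whatever its length. Nothing in the labels says whether the 4 libraries come from separate animals, so the p-values measure the spread between these libraries, which may be technical.

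The respiratory chain of the inner mitochondrial membrane passes electrons from NADH (complex I) and succinate (complex II) through complex III to oxygen (complex IV), and ATP synthase uses the proton gradient this builds. Complexes I, III and IV are assembled from proteins of both genomes, while complex II and most of the smaller subunits are nuclear. Activated macrophages are known for a shift from respiration towards glycolysis, and complexes I and II have a role in their signalling.

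Libraries held 3334182 to 6350251 gene reads. Levels are CPM, counts relative to library depth after TMM scaling, and a gene was called when its adjusted p from edgeR's quasi-likelihood test, adjusted over all 11717 genes tested, was under 0.05. Of the members, 64 of 65 nuclear and 8 of 8 mitochondrial genes were tested. The library of untreated cells at 18 h with replicate number 4 stood apart, with 13405 genes detected against 14212 to 15505 in the others and 705 spike-in reads against 870 to 2588. All 8 macrophage markers were expressed. They summed to 31114 to 44909 CPM in untreated cells at 18 h, 31667 to 32797 with S14 and 15716 to 23752 with LPS. Of these 8 markers, LPS at 18 h raised 4 and lowered 3, where 27.3% and 28.3% of all genes were called. Their median log2 fold change was 0.35. Lyz2, a lysozyme, had the lowest value (-1.40, SE 0.14, adjusted p = 1.99e-08, edgeR's quasi-likelihood test) and Fcgr1 the highest (2.04). The 5 erythroid markers had 0 reads and the lymphocyte and dendritic cell lists summed to at most 5.29 CPM. The summed neutrophil markers were 24.0 to 42.8 CPM in untreated cells at 18 h, 46.5 to 60.2 with S14 and 121 to 174 with LPS. Of them, S100a8 was higher with LPS (4.52, SE 0.32, adjusted p = 4.81e-15) and S100a9 was not called (-0.63, adjusted p = 0.68). The summed stromal markers were 0 to 1.58 CPM untreated and 10.3 to 17.5 with LPS, with Dcn higher by 5.25 (SE 0.67, adjusted p = 2.67e-08). The part of these marker lists in the results at 18 h was not tested. In bulk RNA, fewer cells of a type and less RNA per cell cannot be told apart.

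Not every mitochondrial subunit was measurable. mt-Nd1, mt-Nd2, mt-Nd4 and mt-Cytb had between 209504 and 562167 reads over all libraries, mt-Co1 had 35661 and mt-Nd5 24257. mt-Nd3 had 965 reads and mt-Nd6 371, whereas mt-Co2, mt-Nd4l and mt-Atp8 had 0, mt-Atp6 had 1 and mt-Co3 had 2. These 5 genes encode subunits 2 and 3 of cytochrome c oxidase, a complex I subunit and both mitochondrial subunits of ATP synthase, and they gave no expression value. A block of unprocessed pseudogenes on the minus strand of nuclear chromosome 1 (24611535 to 24616197, GRCm38, GENCODE M21 annotation) holds copies of part of the mitochondrial genome. The copy of mt-Co2, Gm28661, matched it over 681 bases with 0 mismatches. The copies of mt-Atp6 (678 bases), mt-Co3 (783 bases) and mt-Nd4l (294 bases) also had 0 mismatches, and that of mt-Nd3 had 1 over 345 bases. The pseudogenes themselves had 0 to 14 reads. mt-Nd1, mt-Nd2, mt-Nd5, mt-Nd6, mt-Cytb and mt-Atp8 had no close match of at least 100 bases in the annotated pseudogenes of the block. The bases between these pseudogenes were not searched, so a copy there would not have been seen. mt-Nd4 matched Gm28439 over 876 bases, none of them in its last 100, and mt-Co1 matched Gm29216 over its last 483 bases with 1 mismatch. How reads with several matches were treated is not stated, and its part in these read numbers was not tested. The sequences are printed because they show how nearly alike the loci are: first the last 60 aligned bases of mt-Co2 and of its copy, then 60 bases around the single mismatch of mt-Co1, A1066T, counted from 1 at the start of the mt-Co1 transcript (mt-Co1 base first, copy base last) and printed in capitals.
mt-Co2 (MT:7634-7693, plus strand): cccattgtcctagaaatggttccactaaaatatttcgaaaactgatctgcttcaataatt
Gm28661 (chr1:24614885-24614944, minus strand): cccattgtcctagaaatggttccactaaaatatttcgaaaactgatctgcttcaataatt
mt-Co1 (MT:6390-6449, plus strand): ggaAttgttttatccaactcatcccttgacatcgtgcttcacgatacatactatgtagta
Gm29216 (chr1:24616129-24616188, minus strand): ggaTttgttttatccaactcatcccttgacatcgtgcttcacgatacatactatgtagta

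The balance between the genomes did not separate the groups at 3 h and differed from untreated cells at 18 h with both treatments. It was taken in each library as the log2 ratio of summed nuclear to summed mitochondrial reads, so that library scaling cancels. Its absolute value depends on which transcripts the method captures, and only differences between libraries are used. At 3 h it was -0.39, -0.87, -0.81 and -0.68 in untreated cells, -0.60, -0.59, -0.92 and -0.62 with S14, and -0.68, -0.75, -0.83 and -0.69 with LPS. The 3 groups overlapped, with mean differences from untreated cells of 0.01 for S14 and -0.05 for LPS. At 18 h the untreated libraries had -0.61, -0.64, -0.84 and -0.83, the S14 libraries -0.02, 0.08, -0.07 and -0.15, and the LPS libraries 0.72, 0.60, 0.42 and 0.09. Every S14 library lay above every untreated one, and every LPS library above every S14 one, though the lowest LPS library was 0.09 against 0.08 for the highest S14 library. The mean ratio was 1.62-fold higher with S14 than in untreated cells and 2.28-fold higher with LPS, and untreated cells differed by -0.04 between 18 h and 3 h. No test is given for the ratio, since it is a score over chosen genes. Both treated groups are read against the same 4 untreated libraries.

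**Figure D1:**
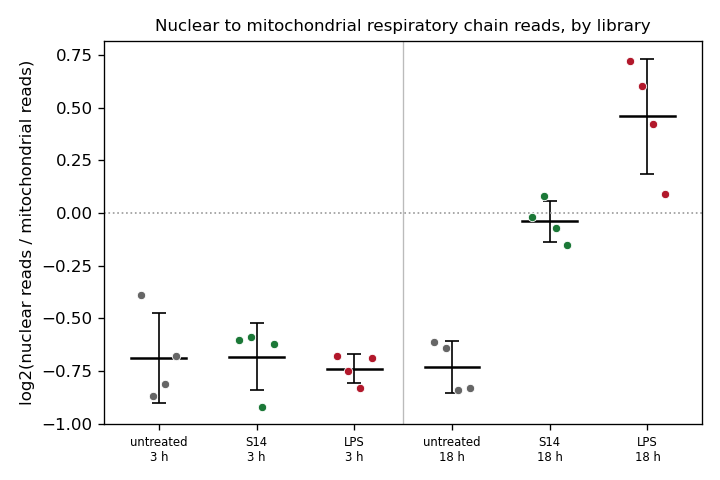
Log2 of summed nuclear over summed mitochondrial respiratory chain reads (vertical axis) in each library (points) of the 6 groups; bars are the mean and whiskers the SD of 4 libraries. Values at 3 h and in untreated cells at 18 h lie between -0.92 and -0.39, those with S14 at 18 h between -0.15 and 0.08, and those with LPS at 18 h between 0.09 and 0.72.

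Under TMM scaling the shift was made from both sides with S14 and mostly from the mitochondrial side with LPS. How it divides between the sides depends on the scaling, as given below. Summed nuclear CPM was 8336 ± 401 (SD, n = 4) in untreated cells at 18 h, 10732 ± 322 with S14 and 9911 ± 236 with LPS, 28.7% and 18.9% higher. Summed mitochondrial CPM was 13839 ± 608, 11060 ± 1037 and 7309 ± 1423, a difference of -20.1% with S14 and -47.2% with LPS. None of these treated groups overlapped with the untreated one. mt-Nd4, mt-Nd1, mt-Cytb and mt-Nd2 made up nearly all of the mitochondrial sum. The nuclear sum of untreated cells at 3 h was 9931 ± 404, so the untreated cells themselves were 16.1% lower at 18 h than at 3 h, with no overlap.

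**Figure D2:**
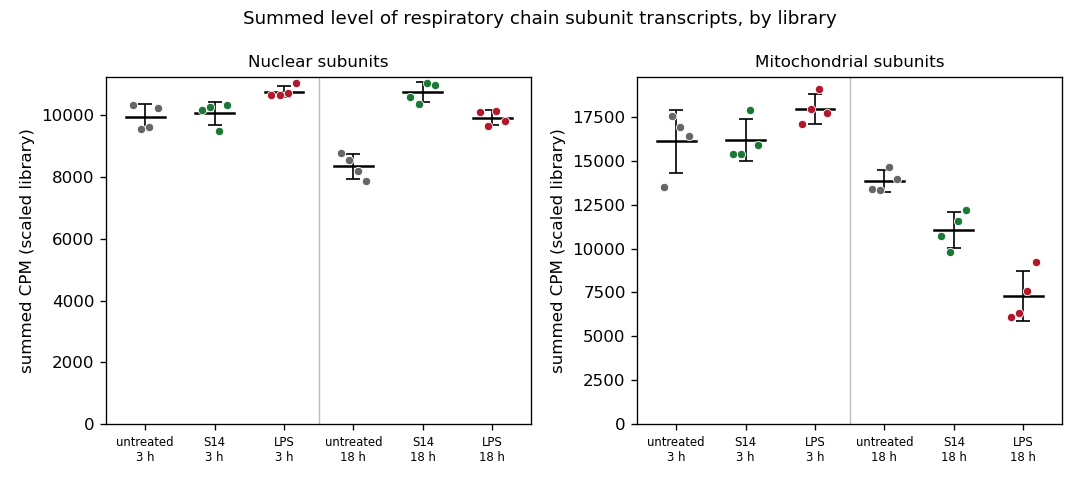
Summed CPM (vertical axes, from 0) of the nuclear members (left) and mitochondrial members (right) in each library (points), with the mean and SD of 4 libraries per group. Nuclear sums at 18 h are 7851 to 8764 untreated, 10350 to 11028 with S14 and 9623 to 10124 with LPS, and mitochondrial sums 13335 to 14641, 9790 to 12183 and 6106 to 9212.

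These levels rest on the scaling, which the ratio does not. As a plain share of all gene reads, the nuclear members made up 0.92% ± 0.0425 in untreated cells at 18 h, 1.11% ± 0.0302 with S14 and 0.867% ± 0.0275 with LPS, so that the nuclear side was higher than untreated with S14 and lower with LPS. At 3 h that share was 1.17% ± 0.046 untreated and 0.821% ± 0.0193 with LPS, while the scaled sum was 8.24% higher with LPS. With all libraries, scaling by spike-in reads turned the nuclear direction at 18 h for both treatments. The nuclear medians became -0.63 for S14 and -0.42 for LPS, and the mitochondrial ones -1.17 and -1.41. Spike-in scaling moved the median of all genes to -0.98 for S14 and -0.68 for LPS against -0.02 and -0.04 under TMM. This turn was smaller without the 4th untreated library at 18 h, which had 705 spike-in reads. Spike-in scaling then gave nuclear medians of -0.15 for S14 and 0.0 for LPS, and mitochondrial medians of -0.71 and -0.88. The all-gene medians were -0.49 and -0.19, so part of the turn remained with S14. Nuclear members called were then 1 higher and 0 lower with S14, where 133 of 11905 genes were higher and 2157 lower. With LPS they were 2 higher and 1 lower, where 1445 genes were higher and 2573 lower. The position of the members relative to all genes changed little. A change of scaling moves all genes by nearly the same amount, so this was nearly fixed in advance. It cannot tell which scaling, and so which direction of the members, is right. The median nuclear log2 fold change minus the median of all genes was 0.34 to 0.41 for S14 at 18 h and 0.18 to 0.26 for LPS at 18 h over all scalings, tools and tables tried on these libraries. For the mitochondrial members it was -0.23 to -0.18 and -0.80 to -0.68.

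Gene by gene, S14 at 3 h changed almost nothing. It raised 1 of 64 nuclear members, Ndufs4, and 0 of 8 mitochondrial ones, where 15.2% of all tested genes were called in either direction, 9.05% higher and 6.2% lower. The median log2 fold change was 0.01 for either genome, against -0.03 for all genes. DESeq2 called 2 nuclear members. At 18 h S14 raised 34 nuclear members and lowered 1, where 24.3% of all genes were called, 12.6% higher and 11.6% lower. It raised 0 mitochondrial members and lowered 3. The nuclear median was 0.38, the mitochondrial median -0.20 and that of all genes -0.02. With spike-in scaling the nuclear counts of S14 at 18 h became 1 higher and 29 lower. Among all 11717 genes 106 were then higher and 7533 lower. Without the 4th untreated library at 18 h spike-in scaling gave 1 higher and 0 lower, where 133 of 11905 genes were higher and 2157 lower. With TMM and without that library the nuclear counts were 35 and 0, where 1360 genes were higher and 1177 lower.

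LPS at 3 h raised 19 nuclear members and lowered 8, where 55.5% of all genes were called in either direction, 25.3% higher and 30.2% lower. It raised 3 mitochondrial members and lowered 0, with medians of 0.10 for nuclear and 0.18 for mitochondrial members against -0.11 for all genes. When libraries were divided by their totals alone, these counts turned to 1 higher and 50 lower for nuclear and 1 higher and 7 lower for mitochondrial members. Of 11717 genes 1567 were then higher and 7553 lower, with an all-gene median of -0.73. At 18 h LPS raised 26 nuclear members and lowered 9, where 55.6% of all genes were called, 27.3% higher and 28.3% lower, and raised 1 mitochondrial member and lowered 6. With library totals the nuclear counts were 10 higher and 26 lower, and the mitochondrial ones 0 and 6. Of all genes 1838 were then higher and 5400 lower. Under TMM the mitochondrial median was -0.81 and the nuclear one 0.17 against -0.04 for all genes. The S14 and LPS comparisons at each time share their untreated libraries, so their values are given side by side and their overlap is not read.

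Untreated cells changed over time in the nuclear members. At 18 h 5 were higher and 32 lower than at 3 h, where 38.8% of all genes were called, 19.2% higher and 19.6% lower, and 3 of 8 mitochondrial members were lower. The nuclear median was -0.28 and that of all genes -0.01. With spike-in scaling the nuclear counts turned to 22 higher and 1 lower, where 5426 of 11717 genes were higher and 213 lower. The test of whether the S14 response differed between times called 27 nuclear members, 26 of them with a more positive value at 18 h, and 1 mitochondrial member, where 16.6% of all genes were called, 7.61% more positive and 8.98% more negative. The same test for LPS called 33 nuclear members, 20 more positive and 13 more negative at 18 h, and 5 mitochondrial members, all 5 more negative, where 51.2% of all genes were called, 25.1% more positive and 26.1% more negative. Part of each such difference is the change of the untreated cells between times, which enters both.

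**Figure D3:**
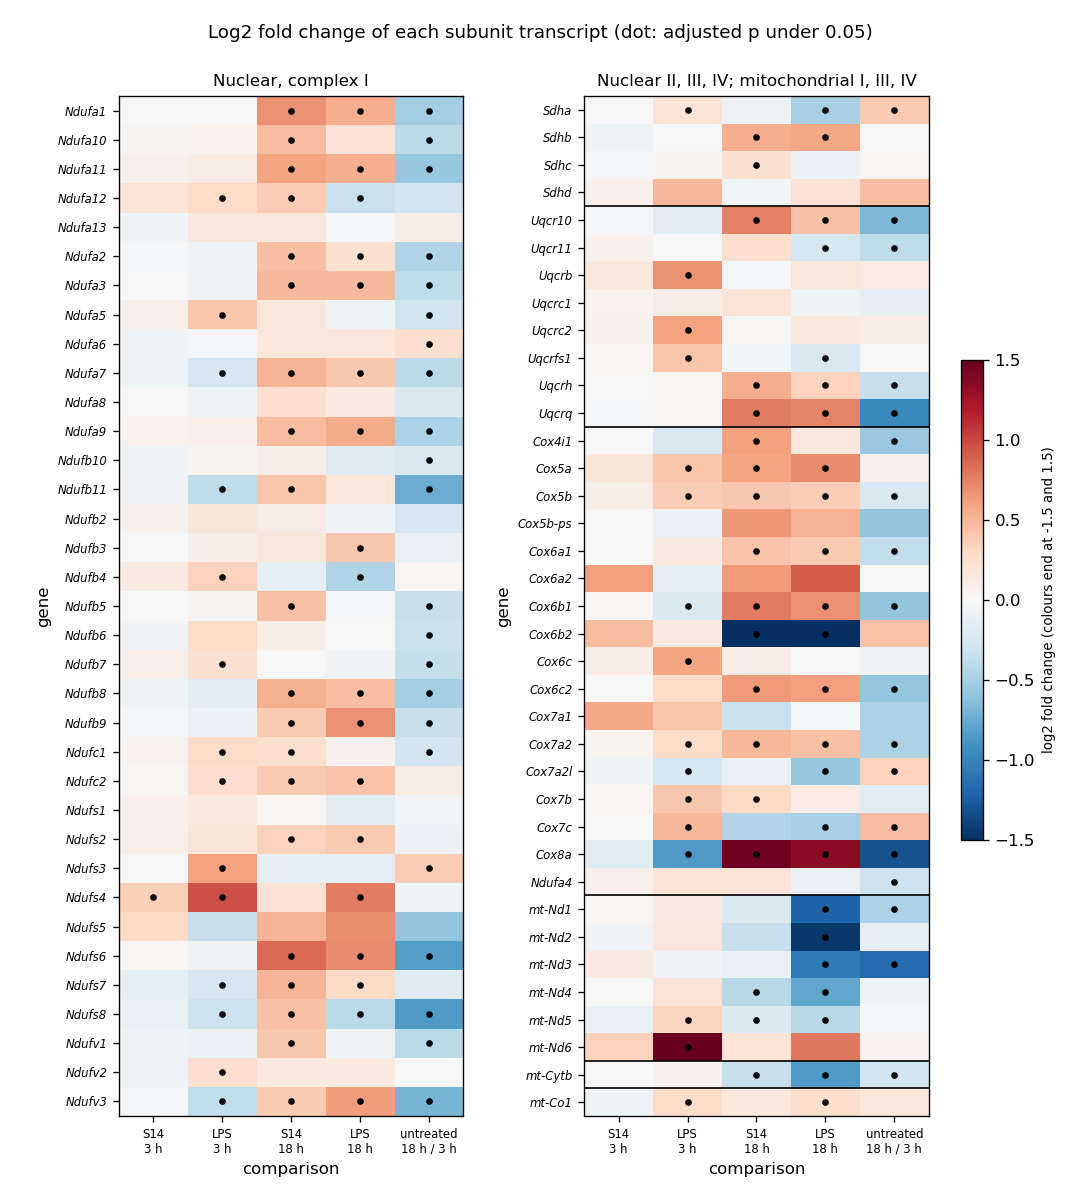
Log2 fold change (colour, ending at -1.5 and 1.5) of each tested member (vertical axis, by complex and genome) in 4 treatment comparisons and in untreated cells over time (horizontal axis); a dot marks an adjusted p under 0.05 in edgeR's quasi-likelihood test. The column for S14 at 3 h has 1 dot, and that for S14 at 18 h has 34 positive and 1 negative nuclear dots and 3 negative mitochondrial ones.

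The counts by complex and by gene list that follow are read against the same shares of all tested genes. These were 9.05% higher and 6.2% lower for S14 at 3 h and 12.6% and 11.6% for S14 at 18 h. For LPS they were 25.3% and 30.2% at 3 h and 27.3% and 28.3% at 18 h, and for untreated cells over time 19.2% and 19.6%. In complex I, the NADH dehydrogenase, S14 at 18 h raised 20 of 35 nuclear subunits and lowered 0, with a median of 0.39. The 7 core subunits, among them those that carry the flavin and the iron-sulfur clusters, had 4 higher and the 28 supernumerary subunits 16. LPS at 18 h raised 15 and lowered 3, where 27.3% and 28.3% of all genes were called. Untreated cells had 2 higher and 20 lower at 18 h than at 3 h. Ndufs6, an accessory subunit of the arm that binds NADH, had the highest value among them with S14 at 18 h. Its level at 18 h was 81.9, 73.8, 71.4 and 38.5 CPM untreated, 126, 116, 119 and 119 with S14 and 117, 103, 126 and 89.1 with LPS. All treated libraries lay above all untreated ones, and the 4th untreated library was the lowest. The log2 fold change was 0.85 with SE 0.14 for S14 (adjusted p = 2.12e-05, edgeR's quasi-likelihood test) and 0.71 with SE 0.14 for LPS (adjusted p = 6.67e-05). Without that library the S14 value was 0.67, and with spike-in scaling it was 0.06 and not called. At 3 h the level was 118 ± 6.0 CPM in untreated cells, close to that of the treated cells at 18 h.

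Ndufs4, an accessory subunit needed for full assembly of the NADH-binding arm, was the 1 nuclear member called with S14 at 3 h. It had 62.2, 61.9, 66.5 and 57.7 CPM untreated at 3 h, 70.8, 82.1, 76.5 and 88.8 with S14, and 122, 118, 130 and 116 with LPS. The 3 groups did not overlap. The log2 fold change was 0.36 with SE 0.11 for S14 (adjusted p = 0.0126, edgeR) and 0.97 with SE 0.10 for LPS (adjusted p = 1.05e-10). The S14 call was lost without untreated replicate 4 (0.33, adjusted p = 0.052), without S14 replicate 4 (0.30, adjusted p = 0.0805), with library totals (0.27, adjusted p = 0.0692) and with spike-in scaling (0.49, adjusted p = 0.972). At 18 h Ndufs4 had 54.2, 63.9, 48.7 and 69.5 CPM untreated, 75.9, 64.0, 70.0 and 64.7 with S14 and 94.9, 113, 96.7 and 98.5 with LPS. The LPS libraries stood above all others, with a log2 fold change of 0.77 with SE 0.10 (adjusted p = 2.18e-08), while the S14 libraries overlapped with the untreated ones (log2 fold change 0.22, SE 0.10, adjusted p = 0.124). S14 and LPS differed at 18 h by -0.55 with SE 0.10 (adjusted p = 2.39e-05). With spike-in scaling the LPS value at 18 h was 0.04 and not called.

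Ndufv3, a small accessory subunit of the flavoprotein part, changed in opposite directions with LPS at the 2 times. It had 162, 143, 124 and 136 CPM untreated at 3 h and 106, 117, 94.2 and 120 with LPS. At 18 h it had 87.5, 96.8, 83.6 and 80.5 CPM untreated, 147, 137, 142 and 115 with LPS and 120, 104, 115 and 117 with S14. LPS was below untreated in all 4 libraries at 3 h and above in all 4 at 18 h, with log2 fold changes of -0.37 (SE 0.10, adjusted p = 0.00159, edgeR) and 0.63 (SE 0.10, adjusted p = 5.57e-07). The difference between these responses was 1.00 (SE 0.14, adjusted p = 7.49e-08). Under spike-in scaling its LPS value at 3 h was -0.04 and not called. With S14 at 18 h the value was 0.39 (SE 0.10, adjusted p = 0.00273).

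The catalytic core did not move as one. Ndufv1, which binds NADH and the flavin, had 50.1 to 66.7 CPM untreated at 18 h and 69.4 to 88.9 with S14, which did not overlap, and its log2 fold change was 0.41 (SE 0.11, adjusted p = 0.00436, edgeR). With LPS at 18 h Ndufv1 was at 52.0 to 67.1 CPM, which overlapped with untreated cells and not with S14, and its value of -0.05 was not called. With spike-in scaling the S14 value of Ndufv1 was -0.51 and not called. Ndufs1, the largest iron-sulfur subunit, was called with neither treatment at either time under TMM, and its level lay between 52.0 and 80.3 CPM in all 24 libraries. Ndufs8, an iron-sulfur subunit near the quinone site and chosen here after its values were seen, separated the treatments. It had 56.3, 59.1, 42.4 and 48.0 CPM untreated at 18 h, 65.8, 75.3, 67.6 and 70.7 with S14 and 39.8, 40.8, 44.5 and 30.1 with LPS. S14 was above untreated (0.44, SE 0.12, adjusted p = 0.00416) and LPS below (-0.41, SE 0.12, adjusted p = 0.00501), the latter with overlapping groups, and S14 exceeded LPS by 0.85 (SE 0.12, adjusted p = 2.29e-07).

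Complex II, succinate dehydrogenase, is wholly nuclear, and its 4 subunits did not move together. Sdha carries the flavin that oxidises succinate. It had 195, 193, 196 and 223 CPM untreated at 18 h, 193, 181, 191 and 199 with S14, and 134, 137, 142 and 164 with LPS. All LPS libraries were below all others at 18 h, with a log2 fold change of -0.49 (SE 0.08, adjusted p = 3.6e-06, edgeR), while S14 overlapped with untreated cells (-0.08, SE 0.08, adjusted p = 0.53). Sdhb, the iron-sulfur subunit bound to Sdha, went the other way. It had 276, 250, 242 and 261 CPM untreated at 18 h, 364, 355, 385 and 388 with S14 and 391, 352, 371 and 419 with LPS. Both treated groups lay above the untreated one, by 0.54 (SE 0.07, adjusted p = 3.54e-07) with S14 and 0.58 (SE 0.07, adjusted p = 9.62e-09) with LPS. Spike-in scaling gave Sdhb values of -0.47 and -0.07, neither called, whereas Sdha was at -1.12 with S14 (adjusted p = 0.005) and -1.17 with LPS, both called. Without the 4th untreated library the spike-in value of Sdha with LPS was -0.54 and not called (adjusted p = 0.0727). At 3 h Sdha with LPS had a value of 0.21 that was called (adjusted p = 0.0343), with overlapping groups. That call was lost when any one of 4 libraries was left out (adjusted p up to 0.141), and the Sdha value was -0.41 when libraries were divided by their totals.

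The membrane anchors of complex II are Sdhc and Sdhd. Sdhc had 118 to 135 CPM untreated at 18 h and 136 to 157 with S14, a log2 fold change of 0.23 (SE 0.09, adjusted p = 0.0438, edgeR). That call was lost with RLE scaling (adjusted p = 0.0598) and when any one of 5 libraries was left out (adjusted p up to 0.119), and turned to -0.79 with spike-in scaling. With LPS at 18 h Sdhc was not called (-0.09). Sdhd was called in none of the 4 treatment comparisons by edgeR under TMM with all libraries. Its value with LPS at 3 h was 0.50 (SE 0.23, adjusted p = 0.0744), and it was called there by DESeq2 (0.54, adjusted p = 0.021), when only the groups compared were fitted (0.54, adjusted p = 0.0163) and without the 4th untreated library at 3 h (0.67, adjusted p = 0.0218). With spike-in scaling Sdhd was called at -1.17 with S14 at 18 h. It spread widely within groups, from 69.4 to 128 CPM in untreated cells at 18 h.

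In complex III, which hands electrons from ubiquinol to cytochrome c, 8 nuclear members were tested. S14 at 18 h raised 3 and lowered 0, and LPS at 18 h raised 3 and lowered 2. The 3 raised by either were Uqcrq, Uqcr10 and Uqcrh, all small subunits and chosen here after their values were seen. Uqcrq had 206, 209, 174 and 126 CPM untreated at 18 h, 304, 304, 323 and 301 with S14, and 291, 306, 306 and 290 with LPS. The treated libraries lay together and above all untreated ones, with log2 fold changes of 0.78 (SE 0.10, adjusted p = 2.33e-08, edgeR) and 0.74 (SE 0.10, adjusted p = 1.09e-08). At 3 h Uqcrq was at 351 ± 25.2 CPM in untreated cells, and its fall in them to 18 h was -0.97 (SE 0.10, adjusted p = 3.81e-11).

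Other subunits of complex III answered LPS early. Uqcrb, which lies beside the cytochrome b subunit, had 155, 153, 139 and 162 CPM untreated at 3 h, 158, 158, 181 and 184 with S14 and 286, 223, 225 and 234 with LPS. Its log2 fold change with LPS was 0.67 (SE 0.10, adjusted p = 1.72e-07, edgeR) and S14 overlapped with untreated cells. Dividing by library totals left 0.05 for Uqcrb with LPS, not called, and its reads were 19825 in the count table and 22981 in the authors' second table, which gave 0.65. The core protein Uqcrc2 and the Rieske iron-sulfur protein Uqcrfs1, both chosen after their values were seen, were also called at 3 h with LPS, at 0.60 (SE 0.09) and 0.42 (SE 0.10). The other core protein, Uqcrc1, was called with neither treatment at either time under TMM with all libraries. Without the 4th untreated library it was called with S14 at 18 h (0.26, adjusted p = 0.0307), with spike-in scaling it was called there at -0.82, and with library totals it was called with LPS at -0.51 at 3 h and -0.39 at 18 h. At 18 h its ranges were 96.7 to 124 CPM untreated, 120 to 143 with S14 and 90.6 to 119 with LPS.

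In complex IV, cytochrome c oxidase, S14 at 18 h raised 9 of 17 nuclear members and lowered 1, and LPS at 18 h raised 7 and lowered 3, where 27.3% and 28.3% of all genes were called. The 1 lowered by S14 was Cox6b2, named here after its values were seen, at 0.636 ± 0.288 CPM against 2.38 ± 2.29, with overlapping groups and 5.78 CPM in the 4th untreated library. Cox8a, the smallest subunit of the complex, had the highest value of all members with either treatment at 18 h. It had 99.7, 76.2, 72.7 and 39.6 CPM untreated at 18 h, 210, 187, 201 and 196 with S14 and 214, 205, 197 and 119 with LPS. Every treated library was above every untreated one, and the fold was 2.76 with S14 (log2 1.46, SE 0.24, adjusted p = 0.000121, edgeR) and 2.55 with LPS (log2 1.35, SE 0.24, adjusted p = 7.27e-05). Without the 4th untreated library the log2 values were 1.27 and 1.15, and with spike-in scaling 0.68 and 0.81, called in each case.

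At 3 h the order of Cox8a was reversed. It had 186, 171, 185 and 170 CPM untreated, 167, 182, 129 and 150 with S14, and 64.4, 108, 82.1 and 140 with LPS. LPS was below untreated in all 4 libraries, with a log2 fold change of -0.85 (SE 0.24, adjusted p = 0.00506, edgeR), and S14 overlapped with untreated cells (-0.18, SE 0.23, adjusted p = 0.714). With spike-in scaling the LPS value was -0.58 and not called (adjusted p = 0.126). In untreated cells Cox8a changed by -1.31 (SE 0.24, adjusted p = 0.0002) from 3 h to 18 h, so its levels with either treatment at 18 h were near those of untreated cells at 3 h. The LPS response differed between times by 2.20 (SE 0.34, adjusted p = 1.64e-05) and the S14 response by 1.65 (SE 0.33, adjusted p = 0.00148).

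**Figure D4:**
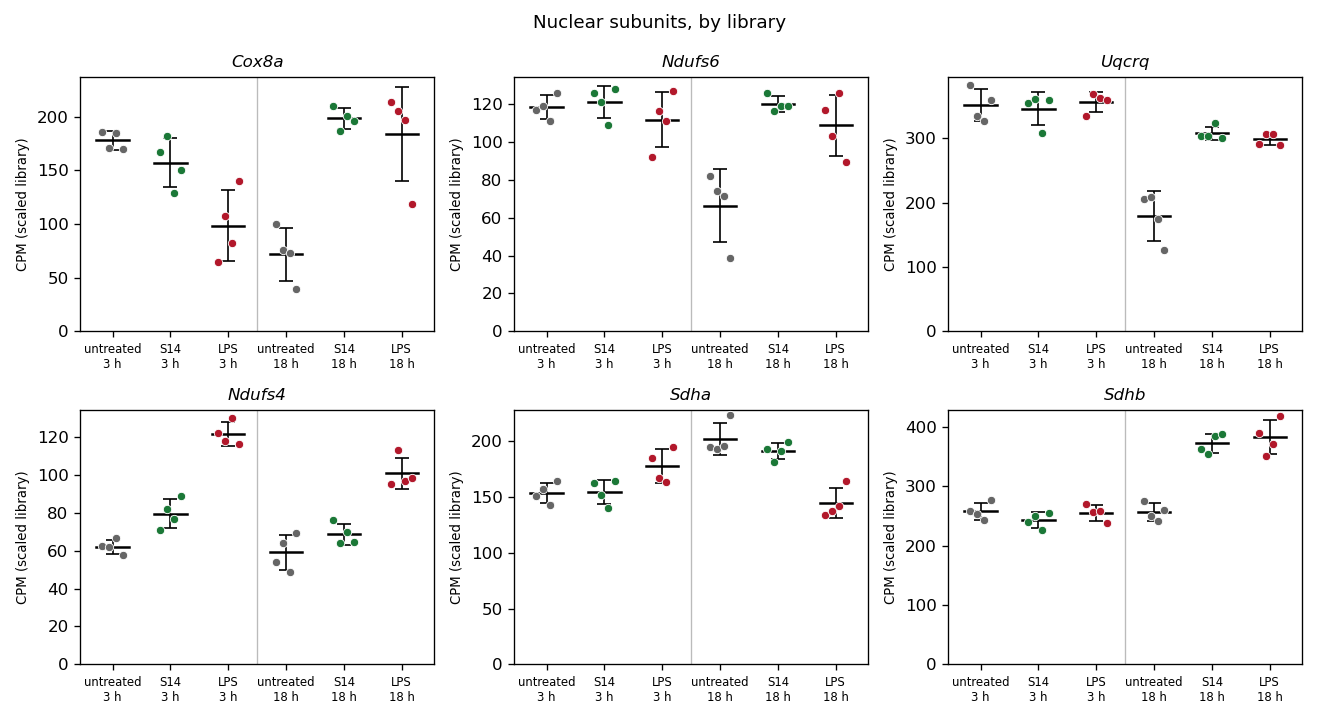
CPM (vertical axes, from 0) of 6 nuclear members in each library (points), with the mean and SD of 4 libraries per group. Cox8a, Ndufs6 and Uqcrq are lowest in untreated cells at 18 h, Ndufs4 is highest with LPS at 3 h, Sdha is lower with LPS than untreated at 18 h, and Sdhb is higher with both treatments at 18 h.

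Other subunits of complex IV differed in which treatment moved them. Cox4i1, a regulatory subunit to which ATP binds, had 393, 346, 315 and 233 CPM untreated at 18 h, 494, 490, 519 and 480 with S14 and 385, 345, 406 and 296 with LPS. S14 was above both other groups, by 0.62 over untreated cells (SE 0.11, adjusted p = 9.52e-05, edgeR) and by 0.47 over LPS (SE 0.11, adjusted p = 0.00109), and LPS overlapped with untreated cells (0.16, adjusted p = 0.253). Cox4i1 with S14 under spike-in scaling was at -0.25. Cox5a, a matrix-side subunit picked once its values were known, was higher with both treatments at 18 h, at 344 to 366 CPM untreated, 521 to 558 with S14 and 562 to 589 with LPS, with values of 0.59 and 0.71 (SE 0.07 each). Cox7a2l, a Cox7a-like protein, had 403, 390, 363 and 345 CPM untreated at 18 h, 328, 341, 361 and 361 with S14 and 272, 222, 250 and 269 with LPS. LPS was lowest at 18 h, with -0.57 (SE 0.08, adjusted p = 2.38e-08), and also at 3 h, with -0.26 (SE 0.08, adjusted p = 0.00416), the latter turning to 0.08 with spike-in scaling. Ndufa4, named for complex I but a subunit of complex IV, was called with neither treatment at either time under TMM with all libraries, though other settings called it, for LPS at 3 h in opposite directions with RLE scaling (0.26) and with library totals (-0.41).

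Some nuclear members of complexes I, III and IV cannot be read singly. Cox7c had 2541 reads in the count table and 13.57 times as many in the authors' second, normalized table, while Cox6c2 and Cox5b-ps, named after Cox6c and Cox5b, had 3220 and 1613 reads in the first table against 20 and 41 in the second. Totals differed by over 10% between the tables for 10 members, the other 7 being Ndufb2, Ndufb4, Ndufc1, Uqcr11, Uqcrb, Uqcrh-ps2 and Cox5b. Their single values are uncertain, and the cause of the difference was not tested. With members left out whose tables differ by over 10%, the log2 ratio at 18 h was -0.98 to -0.73 in untreated cells, -0.27 to -0.03 with S14 and -0.04 to 0.61 with LPS. Both treatments then still lay above untreated cells, by 0.71 and 1.21, but S14 and LPS overlapped.

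Among the mitochondrial members, the lowest values were those of mt-Nd2 and mt-Nd1 with LPS at 18 h. mt-Nd2, a membrane subunit of complex I (MT:3914-4951, GRCm38), had 1817, 1628, 2010 and 2661 CPM untreated at 18 h, 1564, 1424, 1573 and 1801 with S14 and 595, 555, 803 and 1014 with LPS. mt-Nd1, the membrane subunit at the quinone site (MT:2751-3707), had 3359, 3327, 3651 and 2705 CPM untreated, 2677, 2413, 3052 and 3209 with S14, and 1161, 1182, 1496 and 1850 with LPS. For both genes the LPS libraries lay below all others at 18 h, while S14 and untreated cells overlapped. LPS lowered mt-Nd2 2.73-fold (log2 -1.45, SE 0.17, adjusted p = 2.68e-07, edgeR) and mt-Nd1 2.29-fold (log2 -1.20, SE 0.12, adjusted p = 4.06e-09). With S14 the values were -0.35 (SE 0.16, adjusted p = 0.134) for mt-Nd2 and -0.20 (SE 0.12, adjusted p = 0.246) for mt-Nd1. With spike-in scaling mt-Nd1 was called lower with S14 (-1.13, adjusted p = 0.00375, edgeR), where the all-gene median was -0.98. It was also called without the 4th untreated library (-0.75, adjusted p = 0.0137), where that median was -0.49. The difference between S14 and LPS was 1.10 (SE 0.17, adjusted p = 1.67e-05) for mt-Nd2 and 1.00 (SE 0.12, adjusted p = 1.77e-07) for mt-Nd1.

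mt-Nd4 and mt-Cytb were lower with both treatments. mt-Nd4, a proton-pumping subunit of complex I (MT:10167-11544), had 5130, 5368, 5647 and 5361 CPM untreated at 18 h, 3929, 3547, 4241 and 4360 with S14 and 2645, 2749, 3155 and 3989 with LPS. mt-Cytb, the cytochrome b of complex III (MT:14145-15288), had 2500, 2464, 2770 and 2781 CPM untreated, 2003, 1872, 2111 and 2263 with S14 and 1177, 1283, 1579 and 1813 with LPS. Both treated groups were below the untreated one without overlap, and the 4th LPS library was the highest of its group in each case. S14 changed mt-Nd4 by -0.42 (SE 0.09, adjusted p = 0.000714, edgeR) and mt-Cytb by -0.35 (SE 0.10, adjusted p = 0.00723), and LPS changed them by -0.78 (SE 0.09, adjusted p = 3.81e-09) and -0.85 (SE 0.10, adjusted p = 3.37e-09). mt-Nd5, another pumping subunit (MT:11742-13565), had 222, 218, 226 and 229 CPM untreated, 183, 190, 211 and 194 with S14, and 151, 172, 171 and 173 with LPS, values of -0.20 (adjusted p = 0.0368) and -0.42 (adjusted p = 4.84e-06). The mt-Nd5 call with S14 was lost when any one of 6 libraries was left out, with adjusted p up to 0.131. At 3 h, mt-Nd5 with LPS was higher by 0.32 (SE 0.07, adjusted p = 0.000243), at 281 to 291 CPM against 210 to 243, and its value was -0.30 when libraries were divided by their totals.

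mt-Co1, the catalytic subunit of complex IV (MT:5328-6872), was not called lower with either treatment under TMM, though with spike-in scaling S14 at 18 h gave -0.74 (adjusted p = 0.0265). It had 365, 322, 328 and 238 CPM untreated at 18 h, 353, 337, 354 and 348 with S14 and 374, 397, 363 and 365 with LPS. The groups overlapped, and LPS was called higher by 0.26 (SE 0.09, adjusted p = 0.0105, edgeR), a call lost without the 4th untreated library (0.15, adjusted p = 0.0824) and turned to -0.08 with library totals and to -0.31 with spike-in scaling. At 3 h mt-Co1 with LPS was higher by 0.27 (SE 0.09, adjusted p = 0.00942), with overlapping groups and a value of -0.36 with library totals. So relative to mt-Nd1, mt-Nd2, mt-Nd4 and mt-Cytb, whose values with LPS at 18 h ran from -1.45 to -0.78, mt-Co1 lay apart within the same libraries. However, the last 100 bases of mt-Co1, where reads of this method are placed, were identical to its nuclear copy Gm29216. For mt-Nd4 0 of the last 100 bases matched a copy, and mt-Nd1, mt-Nd2 and mt-Cytb had no match in the annotated pseudogenes. The part of this in the mt-Co1 values was not tested. mt-Nd6, the subunit encoded on the opposite strand (MT:13552-14070, minus strand), had 0.942 to 2.93 CPM untreated at 3 h and 3.64 to 10.3 with LPS (1.78, SE 0.46, adjusted p = 0.00108), and its end overlaps that of mt-Nd5 on the other strand. No source used here gives the strand setting of the counting. mt-Nd3, a small complex I subunit named after its values were seen, was at 5.73 ± 2.55 CPM untreated at 18 h and 2.73 ± 1.36 with LPS, with overlap (-1.06, SE 0.35, adjusted p = 0.0104).

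**Figure D5:**
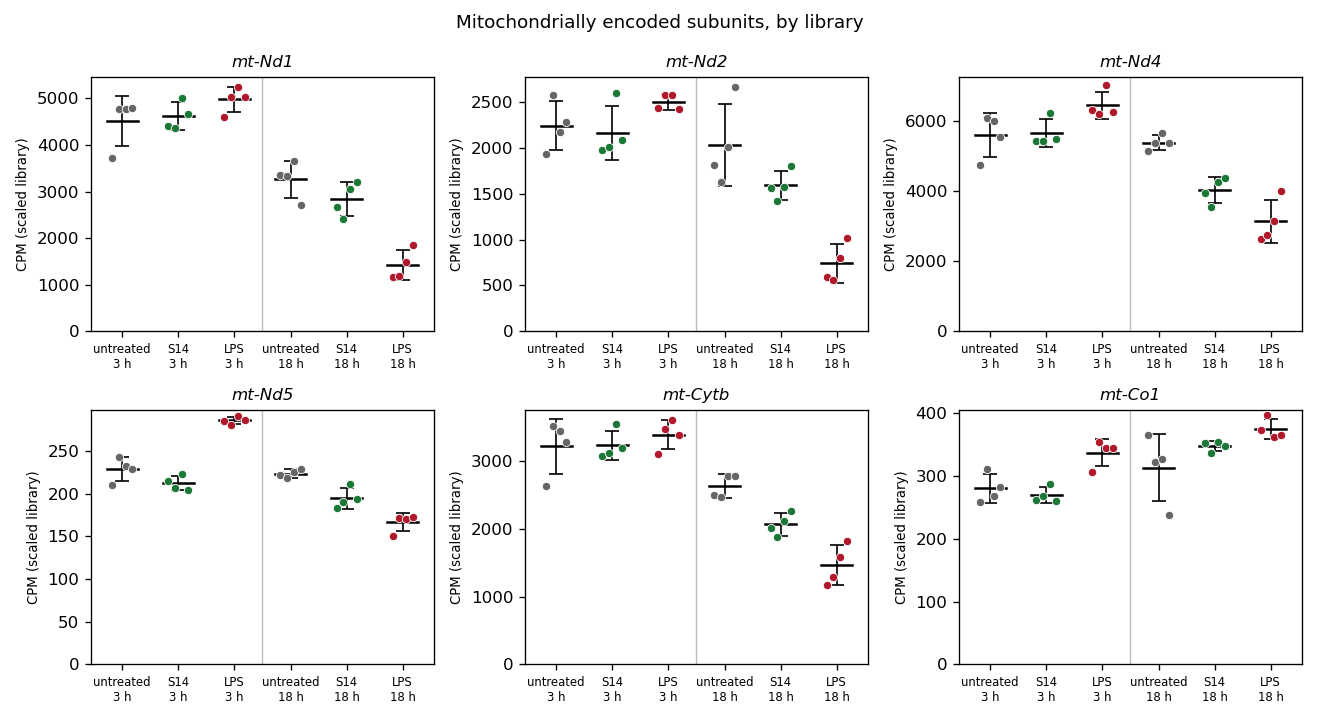
CPM (vertical axes, from 0) of 6 mitochondrially encoded members in each library (points), with the mean and SD of 4 libraries per group. mt-Nd1, mt-Nd2, mt-Nd4, mt-Nd5 and mt-Cytb are lowest with LPS at 18 h, while mt-Co1 lies between 238 and 397 CPM in all untreated and treated libraries at 18 h.

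Transfer RNAs of the mitochondrial genome, seen here as reads in polyadenylated RNA, did not follow the subunits in the untreated cells. Their summed level was 80.4 ± 6.9 CPM untreated at 3 h and 116 ± 15.9 with LPS, and at 18 h 164 ± 43.7 untreated, 111 ± 12.1 with S14 and 113 ± 12.5 with LPS. Both treated groups at 18 h lay below the untreated one without overlap, and S14 and LPS overlapped. Of 9 tested transcripts outside the subunits, S14 at 18 h lowered 3 and LPS at 18 h lowered 4. mt-Tl2, a leucine tRNA, had the largest called value with each treatment, -1.36 (SE 0.32, adjusted p = 0.00136, edgeR) and -1.05 (SE 0.32, adjusted p = 0.00482), and neither call held without the 4th untreated library (adjusted p = 0.0847 and 0.287). mt-Tv, the valine tRNA, was higher with LPS at 3 h, at 17.0 ± 3.05 CPM against 10.8 ± 2.25 (0.66, SE 0.22, adjusted p = 0.0101), and was not called with library totals (0.04).

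The nuclear subunits of ATP synthase, which the name rule leaves out, were also higher with S14 at 18 h. Of 18 tested, S14 at 18 h raised 12 and lowered 0, where 12.6% and 11.6% of all genes were called, with a median of 0.31, and LPS at 18 h raised 7 and lowered 3, where 27.3% and 28.3% were called. Atp5j, a stalk subunit, had the largest value with S14, at 39.1, 35.7, 39.1 and 17.3 CPM untreated at 18 h and 55.4, 45.7, 53.0 and 50.5 with S14. The groups did not overlap (0.64, SE 0.14, adjusted p = 0.000783, edgeR), and with spike-in scaling the value was -0.13. Atpif1, the inhibitor that blocks ATP hydrolysis by the enzyme, had 450, 424, 464 and 345 CPM untreated at 18 h, 430, 433, 447 and 447 with S14 and 245, 233, 260 and 208 with LPS. LPS lay below all others (-0.83, SE 0.08, adjusted p = 8.48e-12), and S14 overlapped with untreated cells (0.06, adjusted p = 0.631). Atp5pb, the b subunit of the stator, was higher with LPS at 3 h, at 348 ± 25.6 CPM against 222 ± 12.4 (0.65, SE 0.08, adjusted p = 1.2e-09), and was not called with library totals (0.03).

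Among 7 tested chain proteins outside the name rule, AA467197, a small relative of Ndufa4 found at complex IV, had the largest value in these lists. It had 4.71, 9.91, 9.90 and 6.13 CPM untreated at 3 h, 16.8, 30.6, 29.7 and 28.1 with S14 and 554, 568, 551 and 578 with LPS. The 3 groups did not overlap, with log2 fold changes of 1.77 (SE 0.39, adjusted p = 0.00302, edgeR) for S14 and 6.18 (SE 0.35, adjusted p = 6.62e-12) for LPS. At 18 h AA467197 had 3.10, 7.75, 4.05 and 0.70 CPM untreated, 6.18, 4.32, 9.97 and 7.86 with S14 and 108, 166, 80.3 and 67.9 with LPS. Only the LPS libraries stood apart then (4.71, SE 0.37, adjusted p = 1.43e-09).

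Of 41 tested assembly factors, LPS raised 10 and lowered 10 at 3 h, and raised 11 and lowered 7 at 18 h, where 25.3% and 30.2% of all genes were called at 3 h and 27.3% and 28.3% at 18 h, while S14 raised 1 at 3 h and raised 7 and lowered 1 at 18 h. Coa5, a factor for complex IV, was called higher in all 4 treatment comparisons, from 96.3 ± 14.4 CPM untreated at 3 h to 125 ± 11.2 with S14 and 238 ± 10.9 with LPS, and from 112 ± 13.3 untreated at 18 h to 168 ± 13.0 with S14 and 288 ± 12.8 with LPS. Sco1, which delivers copper to complex IV, was at 9.23 ± 1.63 CPM untreated and 43.4 ± 3.48 with LPS at 3 h (2.23, SE 0.19, adjusted p = 2.08e-13, edgeR) and missed the threshold with S14 at both times (adjusted p = 0.0517 and 0.0503). Ndufaf7, a methyltransferase that acts on a complex I subunit, was the 1 factor lowered by S14 at 18 h, at 7.44 ± 1.26 CPM against 17.2 ± 4.97 (-1.20, SE 0.22, adjusted p = 4.99e-05), and LPS lowered it too (-1.71, SE 0.23, adjusted p = 3.38e-08).

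Of 15 tested genes that copy and transcribe mitochondrial DNA, S14 raised 0 and lowered 1 at 3 h, where 9.05% and 6.2% of all genes were called. At 18 h 0 were called with S14, where 12.6% and 11.6% of all genes were. LPS raised 3 and lowered 4 at 3 h, where 25.3% and 30.2% were called. It raised 0 and lowered 2 at 18 h, where 27.3% and 28.3% were called. Tefm, the elongation factor of mitochondrial transcription, was at 4.51 ± 1.09 CPM untreated and 18.7 ± 1.92 with LPS at 3 h (2.04, SE 0.32, adjusted p = 8.36e-07, edgeR) and was not called at 18 h (0.22). Polg, the mitochondrial DNA polymerase, was lower with LPS at 3 h, at 20.7 ± 2.52 against 34.8 ± 2.58 CPM (-0.75, SE 0.17, adjusted p = 0.00019), and at 18 h its call of -0.39 (adjusted p = 0.0467) was lost with DESeq2 (adjusted p = 0.0535) and when any one of 6 libraries was left out (adjusted p up to 0.197).

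Of 19 genes for the processing and decay of mitochondrial RNA, S14 at 18 h raised 6 and lowered 1, where 12.6% and 11.6% of all genes were called, and LPS at 18 h raised 4 and lowered 3, where 27.3% and 28.3% were called. Slirp, the partner of Lrpprc that protects mitochondrial mRNA, was called higher in all 4 treatment comparisons, from 114 ± 10.7 CPM untreated at 3 h to 143 ± 5.61 with S14 and 239 ± 16.1 with LPS, and from 126 ± 14.4 untreated at 18 h to 154 ± 20.0 with S14 and 256 ± 28.4 with LPS. The S14 groups overlapped with untreated cells at 18 h, and the S14 call at 3 h was lost with library totals (adjusted p = 0.0731) and without untreated replicate 3 (adjusted p = 0.0714). Pnpt1, an RNA-degrading enzyme of mitochondria, had 17.0, 20.7, 14.5 and 19.2 CPM untreated at 3 h and 88.7, 76.9, 71.6 and 68.5 with LPS, with no overlap (2.10, SE 0.16, adjusted p = 5.04e-15, edgeR), and was higher by 0.50 (SE 0.17, adjusted p = 0.0109) at 18 h. Fastk, which is needed for the mt-Nd6 transcript, was higher at 18 h with S14 (0.79, SE 0.14, adjusted p = 1.75e-05) and LPS (1.07, SE 0.13, adjusted p = 6.36e-09) and lower with LPS at 3 h (-0.47, SE 0.14, adjusted p = 0.00451). Fastk with S14 under spike-in scaling was at -0.08.

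Of 10 tested transcriptional regulators of nuclear respiratory genes, LPS raised 3 and lowered 6 at 3 h, where 25.3% and 30.2% of all genes were called, and raised 5 and lowered 0 at 18 h, where 27.3% and 28.3% were called, and S14 raised 1 at 18 h. That gene was Ppargc1b, a coactivator of respiratory genes. It had 8.90, 5.85, 7.83 and 9.45 CPM untreated at 18 h, 16.5, 12.1, 14.0 and 18.2 with S14 and 15.0, 12.1, 11.2 and 12.7 with LPS, and neither treated group overlapped with the untreated one. The log2 fold changes were 0.93 (SE 0.27, adjusted p = 0.00861, edgeR) with S14 and 0.67 (SE 0.27, adjusted p = 0.0344) with LPS, and 2.72 (SE 0.34, adjusted p = 5.08e-09) with LPS at 3 h. Under spike-in scaling Ppargc1b with S14 at 18 h was at -0.08. Gabpb1, a subunit of the GABP factor, was higher with LPS at 18 h, at 16.1 ± 2.35 against 9.78 ± 3.43 CPM (0.73, SE 0.22, adjusted p = 0.00421), and with spike-in scaling at -0.04.

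The promoters of the nuclear members were read for motifs of factors known to act on respiratory genes, since many of these members were higher with S14 at 18 h. RefSeq promoters (GRCm38.p6, 250 bases before to 50 after the start of transcription) were matched for 51 of the 65 nuclear members, and both strands were searched. The NRF1 motif, GCGCA followed by any base and by GCGC, was in 21.6% of them against 5.19% of all 27025 promoters. The ETS motif CCGGAAG, bound by GABP, was in 21.6% against 9.93%, the YY1 motif AAGATGGCG in 9.8% against 1.64% and the ERRA motif TCAAGGTCA in 1.96% against 0.466%. Among the 27 members with a promoter that were called higher with S14 at 18 h, 3 held the NRF1 motif, 6 CCGGAAG and 4 AAGATGGCG, and among the 24 others 8, 5 and 1 held them. These matches describe the letters of the window and were not tested against the expression values. The promoters of 4 members that differed in their responses are printed with the matches on either strand in capitals: Cox8a with 2 ETS matches, Ndufs6 with 1 NRF1 and 1 YY1 match, Ndufs4 with 1 YY1 match and Sdha with 3 NRF1 matches.
Cox8a (chr19:7217567-7217866, minus strand): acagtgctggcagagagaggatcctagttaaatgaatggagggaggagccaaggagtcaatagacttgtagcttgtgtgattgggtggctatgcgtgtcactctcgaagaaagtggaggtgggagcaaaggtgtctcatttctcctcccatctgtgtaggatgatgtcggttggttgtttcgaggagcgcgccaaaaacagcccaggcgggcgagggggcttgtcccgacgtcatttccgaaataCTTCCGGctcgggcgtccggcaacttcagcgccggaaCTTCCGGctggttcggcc
Ndufs6 (chr13:73328433-73328732, minus strand): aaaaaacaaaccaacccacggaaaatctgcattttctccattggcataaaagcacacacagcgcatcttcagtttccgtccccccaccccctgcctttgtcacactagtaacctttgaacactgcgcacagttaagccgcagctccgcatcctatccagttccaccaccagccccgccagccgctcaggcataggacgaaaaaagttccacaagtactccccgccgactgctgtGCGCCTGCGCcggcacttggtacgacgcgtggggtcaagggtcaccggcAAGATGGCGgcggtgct
Ndufs4 (chr13:114388045-114388344, minus strand): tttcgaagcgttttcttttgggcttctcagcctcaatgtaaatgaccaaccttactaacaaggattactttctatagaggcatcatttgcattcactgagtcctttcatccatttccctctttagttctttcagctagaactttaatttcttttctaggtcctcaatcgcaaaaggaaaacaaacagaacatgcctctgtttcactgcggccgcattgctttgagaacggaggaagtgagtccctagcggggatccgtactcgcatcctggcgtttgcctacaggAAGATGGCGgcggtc
Sdha (chr13:74350191-74350490, minus strand): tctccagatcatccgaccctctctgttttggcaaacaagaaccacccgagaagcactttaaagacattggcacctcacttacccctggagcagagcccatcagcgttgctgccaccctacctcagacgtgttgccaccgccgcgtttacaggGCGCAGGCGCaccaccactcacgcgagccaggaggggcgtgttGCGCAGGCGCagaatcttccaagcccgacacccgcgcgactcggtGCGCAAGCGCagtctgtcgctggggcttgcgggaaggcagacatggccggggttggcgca

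Set directly against each other, the treatments differed in some members at both times. Of 64 nuclear members, 23 were called at 3 h and 21 at 18 h, smaller shares than among all tested genes. At 3 h S14 was higher than LPS in 5 nuclear members and lower in 18, where 46.1% of all genes were called, 23.7% higher and 22.4% lower, and lower in 3 mitochondrial members. At 18 h S14 was higher in 17 nuclear members and lower in 4, where 42.6% of all genes were called, 21.3% higher and 21.3% lower, and higher in 6 mitochondrial members and lower in 0. Under library totals the nuclear counts were 51 higher and 0 lower at 3 h and 46 higher and 1 lower at 18 h. Of 11717 genes 6897 were then higher and 1331 lower at 3 h, and 4091 and 1437 at 18 h. With spike-in scaling 0 nuclear members were called at either time, where 612 genes were higher and 1620 lower at 3 h. At 18 h 519 genes were higher and 1396 lower. Besides Ndufs8 and Cox4i1, Ndufa12, an accessory subunit of complex I chosen after its values were seen, had one of the larger differences at 18 h. It had 94.9, 92.4, 95.1 and 104 CPM with S14 and 51.8, 52.8, 71.2 and 60.3 with LPS, against 73.5, 84.3, 56.2 and 83.5 untreated, and S14 exceeded LPS by 0.71 (SE 0.12, adjusted p = 2.44e-06, edgeR).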

How the data were processed

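RNA of 24 macrophage libraries was sequenced from the 3' end and counted per gene by the authors. The submitters' processing notes name cutadapt 1.18, STAR 2.6.1a, featureCounts 1.6.4, DESeq2 and GRCm38, with no settings. The deposited count table holds whole reads per gene, and it was the table used. A second deposited table holds signal values, which are reads divided by 1 size factor per library by the authors, and includes spike-in entries (114, of which 62 had reads). Its reads were recovered with 100% of values whole within 8.59e-10 and served as an alternative. The count columns call the untreated cells vehicle.

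Counts were tested with edgeR 4.0.16 (R 4.3.3) by the quasi-likelihood test over all 6 groups (18 residual degrees of freedom), after TMM scaling and filterByExpr (minimum count 10, total 15), which left 11717 genes. P-values were adjusted by Benjamini-Hochberg over those genes, and log2 CPM used a prior count of 2. Sums and ratios over members were not tested. On simulated counts for S14 at 18 h over 11717 genes, the test recovered 59.7% of genes changed 1.5-fold, 82.1% of those changed 2-fold and 98.5% of those changed 4-fold, and 6.43% of its calls were unchanged genes. The simulation drew every library from the mean profile of untreated cells at 18 h. It changed only 200 genes above a minimum level, while 2844 genes were called in the data. These shares therefore need not hold for the data.

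The members and gene lists were chosen with earlier results of these data known. Genes named were index members of each complex, the 2 highest and 2 lowest called nuclear and the highest and lowest called mitochondrial members of each treatment comparison with at least 10 CPM and groups that did not overlap, and the largest called member of each list. Other named genes are said to be chosen after their values were seen. Alternatives were DESeq2 1.42.0, RLE scaling, TMM without mitochondrial genes, spike-in scaling, no filter, only the groups compared, the replicate number as a block, the second table, the mean over members and leaving out each library. Spike-in scaling without the 4th untreated library at 18 h, library totals and a ratio over members whose tables agree within 10% were added after seeing the data. A gene's position was taken from GENCODE M21 (GRCm38).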

Additional observations from a re-analysis of the deposited data

Results flagged for a closer look

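In 8 of 150 groups of 4 libraries checked, 1 library lay far from its group by Dixon's test of the gap over the range. Chance gives about 1 in 20 such groups. In S14 replicate 3 at 3 h, the log2 ratio of nuclear to mitochondrial reads was -0.92, mt-Nd4 was at 6229 CPM and Sdhc at 108 CPM. In untreated replicate 4 at 18 h, the library with the fewest genes, Sdha was at 223 CPM and Uqcrb at 209 CPM, the highest of their groups. mt-Nd1 was at 3724 CPM in untreated replicate 1 at 3 h, mt-Nd4 at 7014 CPM in LPS replicate 3 at 3 h and mt-Nd5 at 151 CPM in LPS replicate 1 at 18 h.

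The S14 response differed between times by edgeR's test of the difference in 27 nuclear members and 1 mitochondrial member. Among named genes the difference, 18 h minus 3 h on the log2 scale, was 1.65 for Cox8a, 0.82 for Ndufs6, 0.63 for Cox4i1, 0.62 for Sdhb, 0.48 for Ndufv1, 0.41 for Ndufv3 and -0.43 for mt-Nd4. The LPS response differed in 33 nuclear and 5 mitochondrial members. It was more positive at 18 h for Cox8a (2.20), Ndufv3 (1.00), Ndufs6 (0.79), Sdhb (0.59) and Cox4i1 (0.40). It was more negative for mt-Nd2 (-1.61), mt-Nd1 (-1.34), mt-Nd4 (-0.98), mt-Cytb (-0.92), mt-Nd5 (-0.75), Sdha (-0.69), Uqcrb (-0.50) and Cox7a2l (-0.31). The untreated libraries of both times enter every one of these differences.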

How the results depend on the processing

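Counts of called members depended mainly on the scaling, and the cause was not tested. Calls among all 11717 genes moved with it. With spike-in scaling they were 346 higher and 28 lower for S14 at 3 h and 2341 and 955 for LPS at 3 h. At 18 h they were 106 and 7533 for S14 and 695 and 4526 for LPS. For S14 against LPS they were 612 and 1620 at 3 h and 519 and 1396 at 18 h, and over time 5426 and 213. The differing responses were 20 more positive and 4095 more negative for S14, and 381 and 4476 for LPS. With spike-in scaling the nuclear members called were 0 for S14 at 3 h, 5 for LPS at 3 h, 30 for S14 at 18 h (1 higher, 29 lower), 15 for LPS at 18 h (1 higher, 14 lower), 0 for S14 against LPS at either time and 23 in untreated cells over time (22 higher). The mitochondrial members called were 1 for LPS at 3 h, 6 for S14 at 18 h, 1 and 0 for S14 against LPS at 3 h and 18 h, and 4 over time, all 4 higher. The responses that differed between times numbered 20 for S14 (all 20 lower) and 37 for LPS (36 lower). Without the 4th untreated library at 18 h, chosen after seeing the data, spike-in scaling called 0, 1, 3, 10, 4 and 3 nuclear members for S14 at 3 h, S14 at 18 h, LPS at 18 h, S14 against LPS at 3 h and at 18 h, and time. It called 5, 5, 2 and 0 mitochondrial members for LPS at 3 h, S14 at 18 h, S14 against LPS at 18 h and time, and 4 and 19 differing responses for S14 and LPS. Among all 11905 genes it called 679 higher and 119 lower for S14 at 3 h and 3326 and 1388 for LPS at 3 h. At 18 h it called 133 and 2157 for S14 and 1445 and 2573 for LPS. For S14 against LPS it called 1066 and 2433 at 3 h and 869 and 2828 at 18 h, and 2050 and 372 over time. Of the differing responses 26 were more positive and 1401 more negative for S14, and 858 and 3404 for LPS.

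With library totals, also added after seeing the data, nuclear calls were 0 for S14 at 3 h, 51 for LPS at 3 h (50 lower), 36 for LPS at 18 h (26 lower), and 51 and 47 for S14 against LPS at 3 h and 18 h. Mitochondrial calls were 8 for LPS at 3 h (7 lower) and 5 for S14 against LPS at 3 h (all 5 higher). Among all 11717 genes library totals called 864 higher and 1223 lower for S14 at 3 h and 1567 and 7553 for LPS at 3 h. They called 1838 and 5400 for LPS at 18 h. For S14 against LPS they called 6897 and 1331 at 3 h and 4091 and 1437 at 18 h. A fit on only the groups compared called 3 nuclear members for S14 at 3 h, 6 mitochondrial for LPS at 3 h and 5 for S14 against LPS at 3 h. Of all genes that fit called 1311 higher and 1051 lower of 10585 for S14 at 3 h. It called 3264 and 3204 of 10645 for LPS at 3 h, and 2699 and 2789 of 10632 for S14 against LPS. DESeq2 called 2 nuclear members for S14 at 3 h and 38 differing LPS responses (17 more positive), and RLE scaling 39 (16 more positive), against 38 with 20 more positive and 18 more negative under TMM. Among all genes the differing LPS responses were 2726 more positive and 3331 more negative with DESeq2 and 2711 and 3275 with RLE scaling. For S14 at 3 h DESeq2 called 1152 of 11844 genes higher and 677 lower. The ratio as a mean of log2 CPM over members was -0.24 for LPS at 3 h, 0.49 for S14 and 0.81 for LPS at 18 h, and 0.24 for S14 against LPS at 3 h.

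With spike-in scaling, S14 values at 18 h turned to -0.51 for Ndufv1, -0.47 for Sdhb, -0.79 for Sdhc, -0.25 for Cox4i1, -0.08 for Ppargc1b, -0.13 for Atp5j and -0.08 for Fastk. LPS values turned to -0.07 for Sdhb, -0.31 for mt-Co1 and -0.04 for Gabpb1 at 18 h and 0.08 for Cox7a2l at 3 h. Without the 4th untreated library Ndufv1 was at -0.14, Sdhc at -0.21, Atp5j at -0.05 and Cox7a2l at 0.08. With library totals LPS values turned to -0.30 for mt-Nd5, -0.41 for Sdha and -0.36 for mt-Co1 at 3 h and -0.08 for mt-Co1 at 18 h.

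Leaving out 1 library gave 0 to 3 nuclear members for S14 at 3 h, 14 to 24 for S14 against LPS at 3 h, 13 to 21 at 18 h, and 34 to 40 differing LPS responses. The lowest counts against LPS were without LPS replicate 1 at 3 h and without S14 replicate 4 at 18 h. All-gene calls were then 2478 higher and 2448 lower of 11935, and 2318 higher and 2310 lower of 11964. Among the differing LPS responses the more negative ones outnumbered the more positive ones, by 1 or 2 members, without untreated replicate 4 at 3 h, untreated replicates 3 or 4 at 18 h, or LPS replicate 3 at 18 h. The LPS difference in log2 ratio at 18 h was 1.31 without LPS replicate 4.

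The main fit did not pair libraries by replicate number. Of 60 correlations between same-numbered libraries 1 was over 0.1, and they ran from -0.101 to 0.143 with a median of 0.026. In 76 of 120 comparisons of a library with the 4 libraries of another group, the best correlation was with its own number. That is more often than the 1 in 4 of numbers without meaning. Weak structure shared by replicate number may therefore be present, which the main fit leaves out. With the replicate block 35 nuclear members were called for S14 at 18 h, 34 for LPS at 18 h, 28 for LPS at 3 h and 39 over time, and no count moved by over 1.5 times except that of mitochondrial members whose S14 response differed between times, 2 against 1. All-gene calls with the block were 1560 higher and 1388 lower for S14 at 18 h and 3240 and 3327 for LPS at 18 h. They were 2994 and 3569 for LPS at 3 h and 2257 and 2347 over time. Sdhd with LPS at 3 h was called with the block (0.50, adjusted p = 0.00765). Depth limits mt-Nd3, mt-Nd6 and the genes under 60 reads.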
